A study of Sus scrofa with 6 samples.

Results

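Endothelial and pericyte genes were followed in pig femoral arteries sampled ex vivo at a puncture repaired with TAG, which is the study's glue for vessels, or with Exoseal, a closure device on the market. The genes were CDH5, PECAM1, NOS3, ANGPT2 and RGS5. They were chosen by name, as all non-control probes whose accession in the array design is a pig RefSeq transcript of 1 of these 5 genes, out of 2384 genes that could be named on the array. That gave 10 of 43603 probes: 3 for PECAM1, 2 each for CDH5, NOS3 and RGS5, and 1 for ANGPT2. Total RNA of these vessels, all punctured on the left per the labels, was hybridised to 6 Agilent 1-colour porcine arrays, 3 of TAG arteries and 3 of Exoseal arteries. Breed, age and the time after closure are not stated in the labels used here. No label ties the arrays of a group to different animals. A p-value here therefore measures the spread among these samples, and that spread may be technical.

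Endothelial cells line the lumen of an artery and pericytes and smooth muscle cells surround them. CDH5 (VE-cadherin) holds neighbouring endothelial cells together at adherens junctions, and PECAM1 (CD31) sits at the same contacts and is also carried by platelets and leukocytes. NOS3 (endothelial nitric oxide synthase) makes the nitric oxide that relaxes smooth muscle. ANGPT2 (angiopoietin 2) is stored and secreted by endothelial cells and antagonises angiopoietin 1 at the receptor TEK in resting vessels. RGS5 is a GTPase-activating protein for G protein alpha subunits. It marks pericytes in many tissues and is also made by arterial smooth muscle, so its signal in an artery does not separate the 2 cell types.

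Some features of the arrays touch every value below. Exoseal replicate 1 reads Exoseal in its title and source name and TAG in its treatment characteristic, and is counted as Exoseal here. The file headers group the scan of Exoseal replicate 1 with those of all TAG arrays, a set called slide 1 here. The remaining Exoseal arrays, replicates 2 and 3, form a separate scan set, called slide 2. Both names stand for scans, and whether the arrays of a set shared a physical slide was not checked. Between 34.9% and 41.3% of probes were well above background, by the scanner's own flag, on TAG arrays, and between 60.7% and 70.9% on Exoseal arrays. The 75th percentile of the processed signal, the scanner's background-corrected brightness, was 19.6 to 36.8 in the TAG group and 62.1 to 154 in the Exoseal group. The median negative control spot, before correction, read 27.5, 27 and 25 on the TAG arrays, 38 on Exoseal replicate 1, and 10 and 9.5 on Exoseal replicates 2 and 3. Levels are given as processed signal, or as scaled log2 signal, which is log2 of the processed signal minus that array's 75th percentile. Levels of different probes are not ranked against each other, and probe ratios are compared only between groups. In these whole-vessel samples fewer cells of a type and less RNA per cell cannot be told apart.

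In TAG arteries CDH5 and ANGPT2 fell, by 5.55-fold and 3.25-fold over 6 arrays, and neither passed with slide as a block (limma adjusted p = 0.127 and 0.0981), where the log2 difference was -1.49 for CDH5 and -1.57 for ANGPT2. Both RGS5 probes read higher in TAG without passing the test. PECAM1 and NOS3 had probes that went opposite ways. Of the 10 probes, 8 were well above background on at least 3 arrays and were tested, 7 of them above background on all 6 arrays. With limma and Benjamini-Hochberg adjustment over 22720 probes, 2 member probes passed 0.05 as lower in TAG and 2 as higher, against 3.69% and 7.06% of all tested probes. The groups did not overlap for 6 of the 8, against 36.4% of all tested probes. The median log2 difference, TAG minus Exoseal, was 0.15 over the 8 probes and 0.08 over all tested probes.

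**Figure D1:**
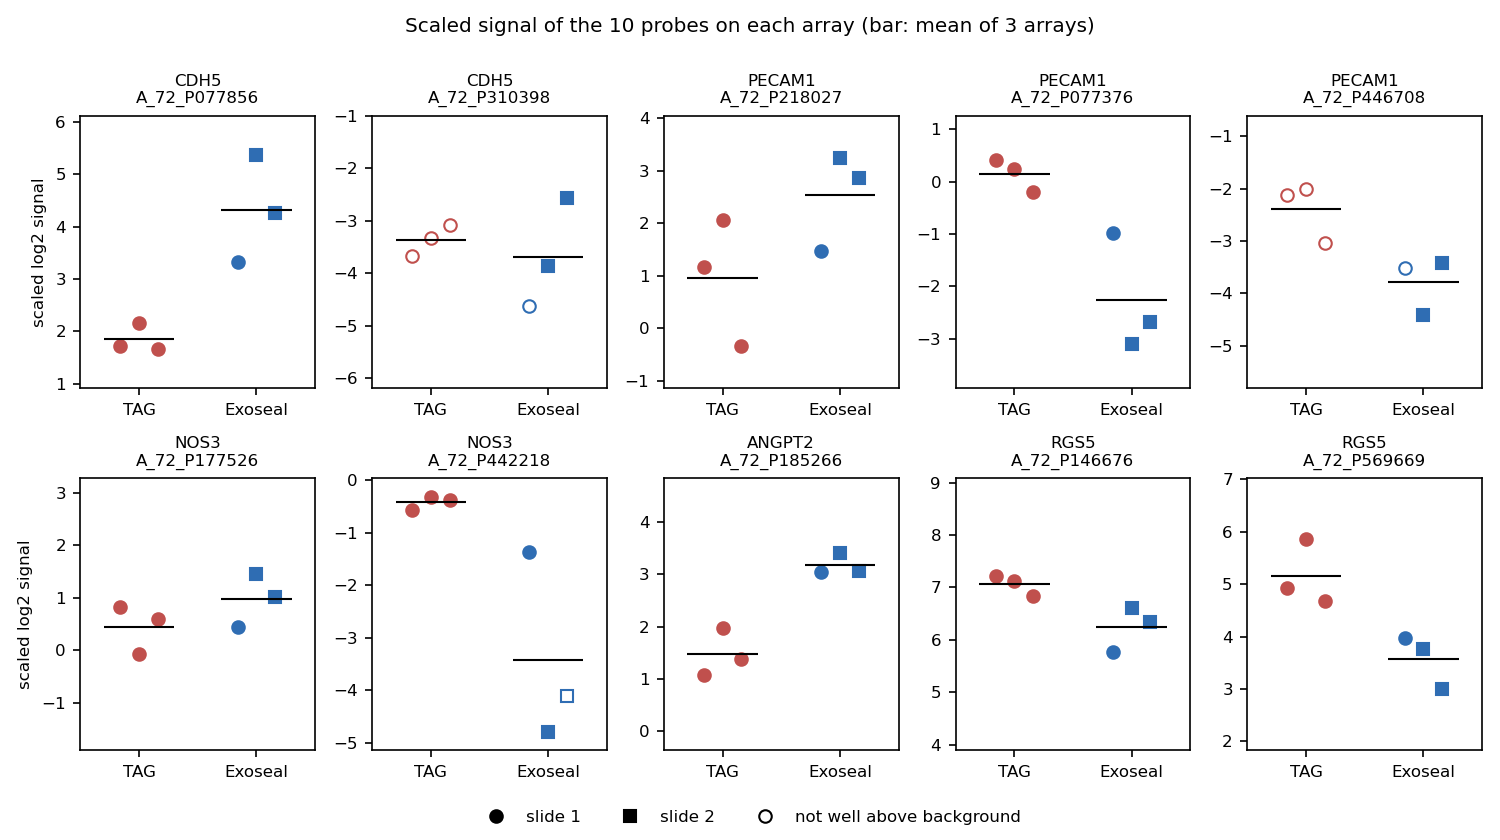
Scaled log2 signal (vertical axis, each panel spanning the same number of log2 units) of the 10 probes on each array, TAG left and Exoseal right. Circles are the scan set called slide 1 and squares the one called slide 2. Open symbols are not well above background, and bars are the mean of 3 arrays. CDH5 A_72_P077856 and ANGPT2 lie lower on every TAG array than on any Exoseal array, and the circle of Exoseal replicate 1 lies nearest to the TAG arrays for CDH5 A_72_P077856, PECAM1 A_72_P077376 and NOS3 A_72_P442218.

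CDH5 was measured by probe A_72_P077856 and by the dim probe A_72_P310398. The first had processed signals of 119, 115 and 61.0 on TAG arrays 1 to 3, against 689, 6227 and 1163 on Exoseal arrays 1 to 3. On the scaled log2 scale these were 1.72, 2.16 and 1.66 in TAG and 3.33, 5.37 and 4.25 in Exoseal. Every TAG array was lower than every Exoseal array, and the lowest Exoseal array was replicate 1. The mean was 1.85 ± 0.28 in TAG and 4.32 ± 1.02 in Exoseal (SD, n = 3 arrays each), a log2 difference of -2.47 ± 0.56 (SE, 95% interval -3.73 to -1.21, limma adjusted p = 0.0322). Against Exoseal replicate 1 alone, within slide 1, it was -1.49 ± 0.42 (limma adjusted p = 0.0628), and with slide as a block the adjusted p was 0.127. The second CDH5 probe failed the background flag on all 3 TAG arrays and on Exoseal replicate 1, with processed signals of 2.84, 2.57 and 2.28 in TAG and 2.77, 10.4 and 10.3 in Exoseal. It was not tested, and no fold is given for it. Its uncorrected spot was 1.13, 1.04 and 1.08 times the median negative control on TAG arrays and 1.13, 2.20 and 2.21 times on Exoseal arrays, so its reading on slide 1 lay close to the negative controls.

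ANGPT2 had a single probe, A_72_P185266. Its processed signals were 76.6, 100.3 and 49.97 on TAG arrays, against 564, 1592 and 511 on Exoseal arrays. The scaled log2 signals were 1.07, 1.96 and 1.37 in TAG and 3.04, 3.40 and 3.07 in Exoseal. The groups did not overlap, and the 3 Exoseal arrays lay within 0.36 log2 units of each other, so Exoseal replicate 1 did not stand apart here. The mean was 1.47 ± 0.45 in TAG and 3.17 ± 0.20 in Exoseal (SD, n = 3 each), a log2 difference of -1.70 ± 0.43 (95% interval -2.68 to -0.72, limma adjusted p = 0.0410). Within slide 1 the difference was -1.57 (adjusted p = 0.0737), and with slide as a block the adjusted p was 0.0981. Counting Exoseal replicate 1 as TAG gave -1.37 (adjusted p = 0.131).

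PECAM1 was read by 3 probes that disagreed. Probe A_72_P218027 had processed signals of 82.0, 107 and 15.2 in TAG, against 190, 1429 and 446 in Exoseal. Its scaled log2 signals were 1.17, 2.06 and -0.34 in TAG and 1.48, 3.24 and 2.87 in Exoseal, so TAG replicate 2 lay above Exoseal replicate 1 and the groups overlapped. The log2 difference was -1.57 ± 0.70 (95% interval -3.14 to 0.01, limma adjusted p = 0.163), and -0.51 within slide 1. Its spread among TAG arrays, with an SD of 1.21, was wider than that of 97.1% of tested probes. Without Exoseal replicate 1 this probe passed in limma, at -2.09 (adjusted p = 0.0134), but there group and slide cannot be told apart.

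The PECAM1 probe A_72_P077376 went the other way. It had processed signals of 48.2, 30.4 and 16.7 in TAG, against 34.7, 17.7 and 9.47 in Exoseal, ranges that overlap before scaling between arrays. Scaled, it read 0.41, 0.24 and -0.20 in TAG and -0.98, -3.09 and -2.69 in Exoseal, and rose by 2.40 ± 0.59 (95% interval 1.07 to 3.73, limma adjusted p = 0.0376). Within slide 1 the difference was 1.13 (adjusted p = 0.121), and with normexp and quantile scaling it was 0.73 (adjusted p = 0.0297). Its uncorrected spot was 2.56, 2.19 and 1.80 times the median negative control in TAG and 1.87, 3.05 and 2.11 times in Exoseal. By that measure the groups overlapped. The third probe, A_72_P446708, failed the background flag on all 3 TAG arrays and on Exoseal replicate 1 and was not tested, with processed signals of 8.33, 6.37 and 2.36 in TAG and 5.94, 7.10 and 5.71 in Exoseal.

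NOS3 had the same pattern as PECAM1, a brighter probe with no difference past the test and a dim one that rose. Probe A_72_P177526 had processed signals of 64.8, 24.3 and 29.2 in TAG, against 92.7, 414 and 123 in Exoseal, and scaled log2 signals of 0.83, -0.08 and 0.60 in TAG and 0.44, 1.46 and 1.02 in Exoseal. The groups overlapped after scaling. The log2 difference was -0.52 ± 0.47 (95% interval -1.58 to 0.54, limma adjusted p = 0.494), and 0.011 within slide 1. The interval therefore holds both a fall of over 2-fold and a small rise.

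The dim NOS3 probe A_72_P442218 had processed signals of 24.6, 20.8 and 14.9 in TAG, against 26.4, 5.45 and 3.54 in Exoseal. Exoseal replicate 1 was the highest of the 6 arrays before scaling. Scaled, the probe read -0.57, -0.31 and -0.37 in TAG and -1.37, -4.79 and -4.11 in Exoseal, and was not well above background on Exoseal replicate 3. It rose by 3.01 ± 0.79 (95% interval 1.23 to 4.79, limma adjusted p = 0.0440), and by 0.96 within slide 1 (adjusted p = 0.139). With normexp background correction and quantile scaling the difference was 0.54 (adjusted p = 0.0598). Its uncorrected spot was 1.93, 1.81 and 1.56 times the median negative control in TAG and 1.68, 1.60 and 1.47 times in Exoseal, under 2 times on all 6 arrays and overlapping between the groups. The part that this low brightness has in the calls of the dim NOS3 and PECAM1 probes was not tested.

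**Figure D2:**
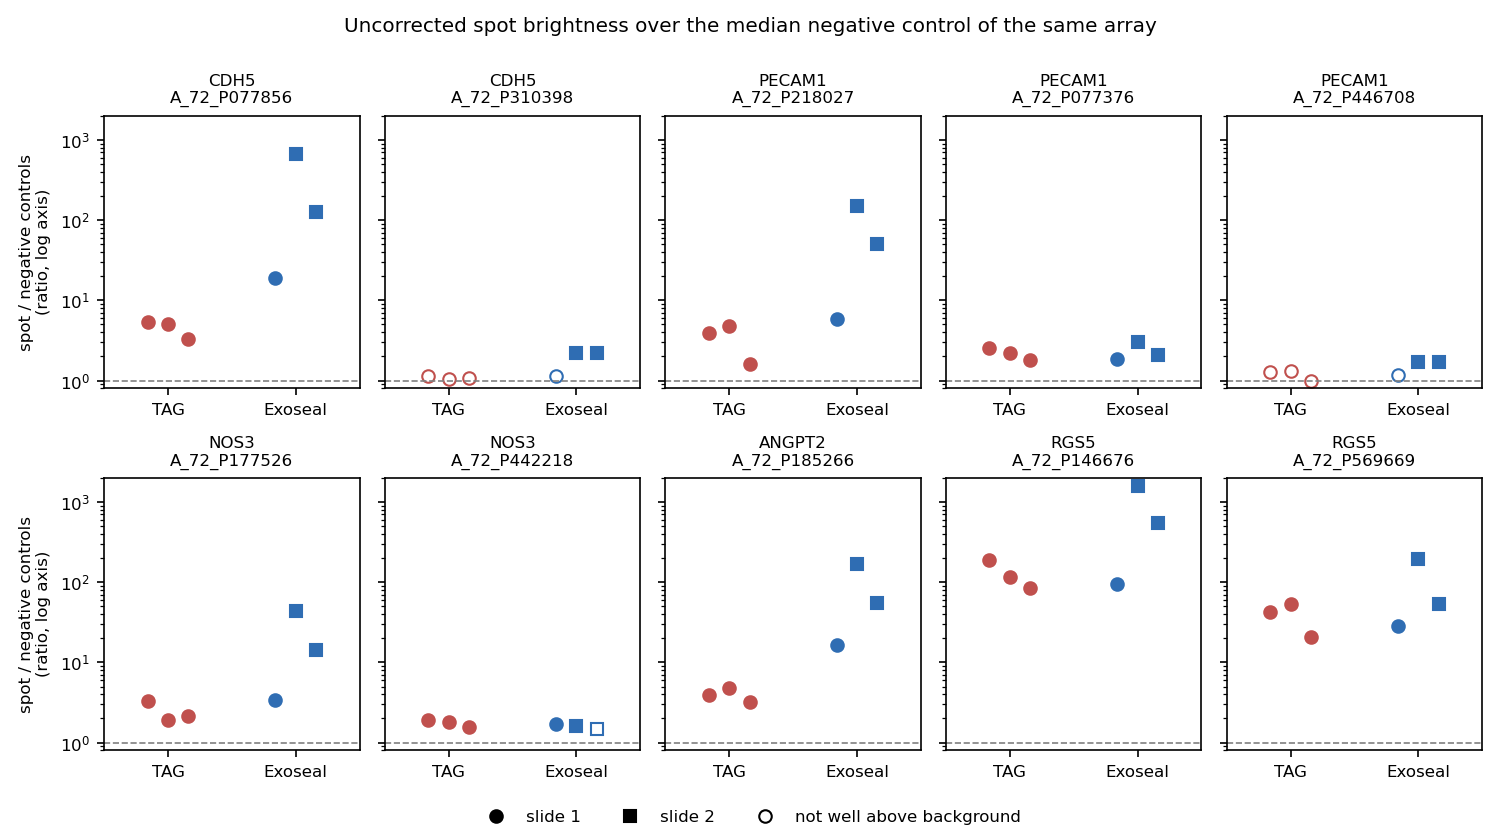
Uncorrected spot brightness divided by the median negative control of the same array (vertical axis, log scale, dashed line at 1) for the 10 probes, TAG left and Exoseal right; symbols as in the plot of scaled signal. NOS3 A_72_P442218 stays between 1.47 and 1.93 on all arrays, while CDH5 A_72_P077856 has 3.32 to 5.29 in TAG and 19.1 to 657 in Exoseal.

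RGS5 was bright on every array with both of its probes. Probe A_72_P146676 had processed signals of 5393, 3571 and 2218 in TAG, against 3734, 14747 and 4974 in Exoseal, and scaled log2 signals of 7.21, 7.12 and 6.85 in TAG and 5.77, 6.61 and 6.35 in Exoseal. Before scaling the groups overlapped and the highest array was Exoseal replicate 2, and after scaling all TAG arrays were higher. The log2 difference of 0.81 ± 0.43 did not pass (95% interval -0.15 to 1.78, limma adjusted p = 0.232). It was 0.03 with quantile scaling and -0.14 with normexp and quantile scaling, so its sign rests on how the arrays are scaled. Probe A_72_P569669 had processed signals of 1107, 1493 and 490 in TAG, against 1073, 2051 and 486 in Exoseal. Its scaled log2 signals were 4.93, 5.86 and 4.67 in TAG and 3.97, 3.77 and 2.996 in Exoseal. The groups did not overlap after scaling, and the log2 difference of 1.57 ± 0.50 missed the threshold (95% interval 0.45 to 2.69, limma adjusted p = 0.0701). Quantile scaling gave 1.48 for this probe and slide 1 alone gave 1.18.

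**Figure D3:**
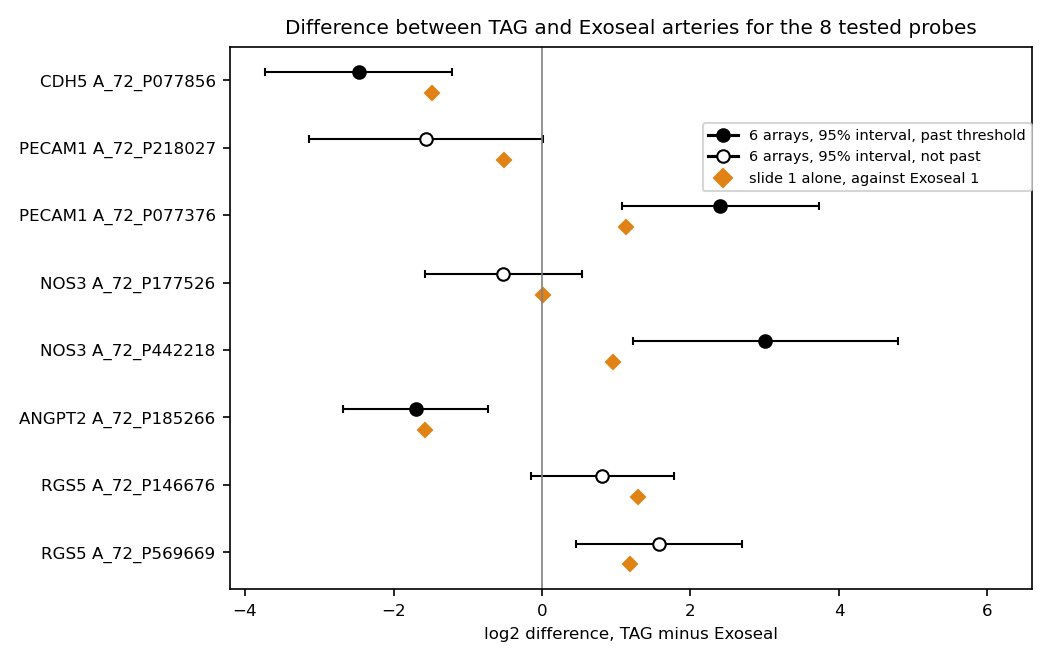
Log2 difference, TAG minus Exoseal, of the 8 tested probes (horizontal axis), with 95% limma intervals over 6 arrays (circles, filled where the adjusted p was under 0.05) and the value within slide 1 against Exoseal replicate 1 alone (diamonds). CDH5 and ANGPT2 lie left of 0, and NOS3 A_72_P442218 has 3.01 over 6 arrays and 0.96 within slide 1.

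The design allowed 3 checks that bear on the split between the scan sets called slide 1 and slide 2. With slide as a block 0 of the 8 probes passed in limma, against 8.99% of all tested probes. At an unadjusted p under 0.05 in that fit were 3 of the 8, and 6416 of all 22720 tested probes. Slide 2 holds no TAG array, so every difference with slide as a block equals the one within slide 1. Each rests on the single array of Exoseal replicate 1, whose treatment characteristic reads TAG. Within slide 1, where the Exoseal side is the single array of replicate 1 and is assumed to vary like the TAG arrays, 0 passed (5 unadjusted), against 12.7%. Without Exoseal replicate 1, 6 of the 8 passed, against 34.0% of all tested probes. In that fit every TAG array is on slide 1 and every Exoseal array on slide 2, so group and slide cannot be told apart. In the first and second of these checks NOS3 A_72_P177526 changed sign, to 0.011. Without TAG replicate 1, 2 or 3, or without Exoseal replicate 2 or 3, no probe of the whole array passed, members included.

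Exoseal arrays were the more variable group for 77.6% of all tested probes and for 5 of the 8 member probes. TAG arrays all belong to slide 1, while Exoseal arrays span slides 1 and 2. The Exoseal SD therefore includes any difference between these scan sets, which cannot be told apart from spread among replicates. The same holds for the distance of Exoseal replicate 1 from replicates 2 and 3. The SD over Exoseal arrays was 1.02 for CDH5 A_72_P077856, against 0.28 over TAG arrays, and it was above that of 71.9% of tested probes. For NOS3 A_72_P442218 it was 1.81, above 94.5% of tested probes, with the highest scaled Exoseal array at 10.7 times the lowest. ANGPT2 was the steadiest member in Exoseal, with an SD of 0.20 that only 4.58% of tested probes undercut. Exoseal replicate 1 differed from the mean of replicates 2 and 3 by -1.48 log2 units for CDH5 A_72_P077856, -1.58 for PECAM1 A_72_P218027, 1.91 for PECAM1 A_72_P077376 and 3.08 for NOS3 A_72_P442218. For ANGPT2 the gap was -0.19, for NOS3 A_72_P177526 -0.80, and for RGS5 -0.71 by A_72_P146676 and 0.59 by A_72_P569669. With all tested probes split by brightness into 5 bins of 4544, the dimmest bin, to which NOS3 A_72_P442218 belongs, had a median gap of 1.32, and the brightest, which holds CDH5 A_72_P077856, ANGPT2 and both RGS5 probes, had -0.02. In the dimmest bin 9.04% of probes passed as higher in TAG and 4.53% as lower, and their median difference was 0.11 over 6 arrays and -0.74 within slide 1.

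Probe agreement was tested directly as the log2 ratio of 2 probes of a gene within an array, which does not depend on scaling between arrays. For PECAM1, A_72_P218027 over A_72_P077376 averaged 0.82 ± 0.98 in TAG and 4.78 ± 2.05 in Exoseal (SD, n = 3 each). The groups did not overlap, with 2.46 on Exoseal replicate 1 against at most 1.82 in TAG. For NOS3, A_72_P177526 over A_72_P442218 averaged 0.87 ± 0.59 in TAG and 4.39 ± 2.31 in Exoseal, where A_72_P442218 was not well above background on replicate 3 and was under 2 times the negative controls on all 6 arrays. For the 2 RGS5 probes the ratio averaged 1.91 ± 0.56 in TAG and 2.67 ± 0.79 in Exoseal, and the groups overlapped. By a two-sided exact permutation test p was 0.1 for the PECAM1 and NOS3 pairs, the smallest possible with 3 against 3, and 0.3 for RGS5 (0.15 and 0.3 adjusted over 6 pairs). Opposite signs were common on this array, since 385 of 732 named genes with at least 2 tested probes had them (52.6%). The gap between probes was wide for PECAM1 and NOS3, at 3.97 and 3.53 log2 units, above that of 97.3% and 94.9% of such genes, and both gaps rest on a dim probe. It was 0.76 for RGS5, above 29.0% of them, and 1.34 at the median.

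Few other endothelial and pericyte markers could be read. Of 11 listed endothelial markers 4 had a named probe, and beyond the members this was CLDN5 (claudin 5, a tight junction protein). CLDN5 was not above background on any TAG array and was above it on 1 Exoseal array, replicate 1, with processed signals of 3.65, 3.12 and 3.92 in TAG and 27.5, 3.80 and 3.90 in Exoseal. Of 7 pericyte markers only RGS5 had a named probe.

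In the pathway lists no measured endothelial identity gene passed the test, while 3 of 4 mural genes rose, of which only ACTA2 also passed with slide as a block. Over all lists of vessel wall and other cell markers 30 probes passed, of which 14 passed with slide as a block and 8 with median scaling. EDN1 A_72_P077871 and ACTA1 A_72_P727093 and A_72_P763429 passed with slide as a block but not without it (limma adjusted p = 0.0164, 0.0153 and 0.0180). Of all 22720 tested probes 2443 passed (10.8%), 8.99% with slide as a block and 1049 probes with median scaling. The last 2 count every call of those fits and the 14 and 8 only probes among the 30, so they are not like for like. List probes tested were not totalled, so the 30 are not read against the 10.8%. A gene is counted as risen if any of its probes passed, and no list was tested against all probes. Of 4 endothelial identity genes with a tested probe (21 listed) 0 passed in limma. At an unadjusted p under 0.05 in that fit were 1 probe each of CD34 and KLF2, and 7035 of all 22720 tested probes. ENG (endoglin, a TGF-beta co-receptor) had a log2 difference of 0.84 ± 0.69, ICAM2 (an endothelial adhesion molecule) 0.36 ± 0.55, CD34 (a sialomucin of endothelium and progenitors) 0.60, 0.89 and 2.11 by its 3 probes, and KLF2 (a shear-responsive transcription factor) 0.26 and 2.89. The CD34 probes with 0.89 and 2.11 were above background on only 1 of 3 TAG arrays, and ICAM2 on 2. Each of these was above it on all 3 Exoseal arrays, so their higher scaled values in TAG rest on dim readings. The median of the 7 probes was 0.84, and 0.20 within slide 1, against 0.08 and -0.09 for all tested probes. Within slide 1 3 of the 7 probes turned, ENG to -0.68, ICAM2 to -0.66 and CD34 A_72_P443228 to -0.47. A difference between CDH5 and these genes was not tested.

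Among 4 measured junction partners of VE-cadherin, CTNNB1 (beta-catenin) had probes past the threshold in both directions, at 2.36 ± 0.40 and -2.39 ± 0.53 (limma adjusted p = 0.0229 and 0.0314), and with slide as a block only the first passed (adjusted p = 0.0296 and 0.138). CTNNB1 was 1 of only 2 named genes with such a split, the other being CD9. JUP (plakoglobin) was above background on only 1 of 3 Exoseal arrays and is given no fold, VCL (vinculin) -1.13 to 0.78 over its probes, and OCLN (occludin) -0.29 and 0.57, and none of these passed. In the nitric oxide list 2 of 8 measured genes rose. CAV1 (caveolin 1, which binds and restrains the enzyme) rose by 2 of its 4 probes, at most by 2.10 ± 0.45 (adjusted p = 0.0457 with slide as a block, and 0.0810 for the other probe), and HSP90AA1 (a chaperone of it) by 1.96 ± 0.47 by 1 of 6 probes. ARG1 (arginase 1, which competes for arginine) read lower past the threshold by both probes, 1 of which passed with slide as a block. No TAG array was above background for either. Both reached the filter only through Exoseal arrays, which favours a lower reading in TAG, so no fold is given and no fall is counted. The median log2 difference of this list was 0.77, and 0.26 within slide 1.

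Of 2 measured genes in the growth factor list HIF1A (a hypoxia-responsive transcription factor) rose by both probes, by 2.84 ± 0.48 and 1.69 ± 0.42 (adjusted p = 0.00633 and 0.141 with slide as a block), and ADM (adrenomedullin, a vasodilator peptide) had -1.46 ± 0.58. VEGFA, ANGPT1 and ANGPTL4 had probes that did not reach the filter. In the list of endothelial activation and the anticoagulant surface 2 of 12 genes rose, among them PROCR (the endothelial protein C receptor) by 1.64 ± 0.42 by 1 of its 2 probes (adjusted p = 0.149 with slide as a block), and the list's median was 0.16. The Notch and ephrin genes EFNB2 (an arterial ephrin, 2.01 ± 0.90) and NOTCH4 (an endothelial Notch receptor, 1.23 ± 0.46) did not pass. RGS2 and RGS4, relatives of RGS5, did not pass either, with 1.52 ± 0.58 and -0.79 ± 0.50, and RGS4 was above background on no TAG array.

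**Figure D4:**
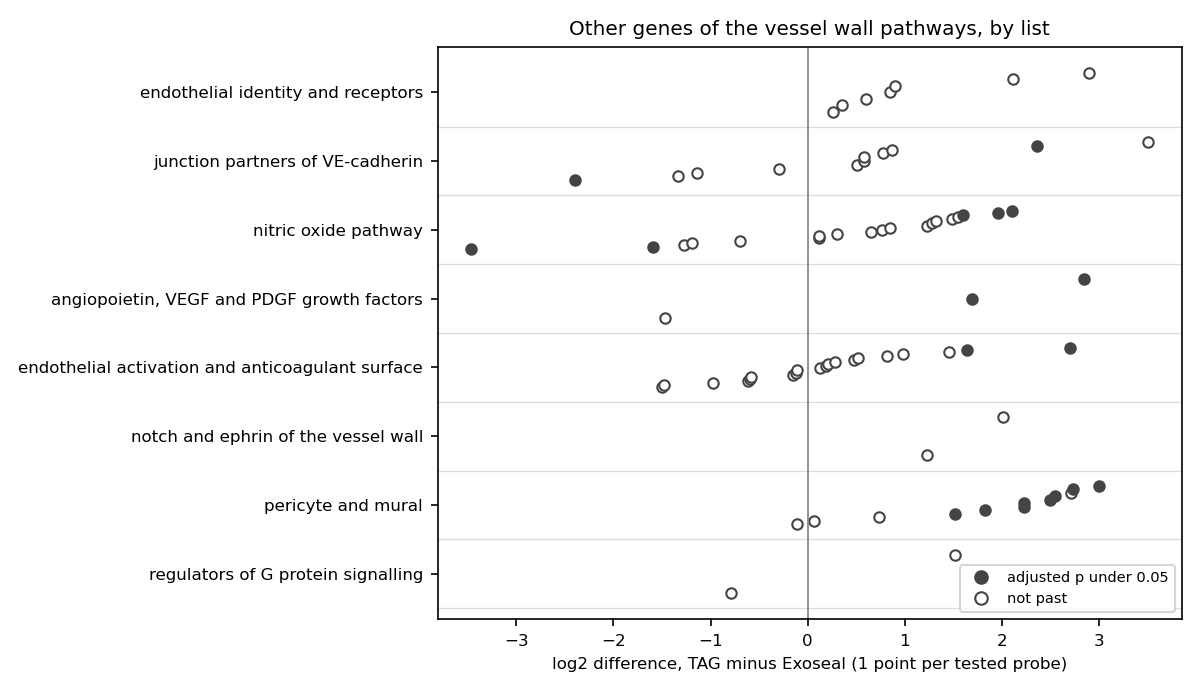
Log2 difference, TAG minus Exoseal (horizontal axis), of every tested probe of 8 lists of vessel wall genes that exclude the members, filled where the limma adjusted p was under 0.05. The 7 probes of endothelial identity genes lie right of 0 with none filled, while ACTA2, CNN1 and DES fill the right side of the pericyte and mural list. Of the endothelial identity probes, ICAM2 and CD34 A_72_P443228 and A_72_P563809 were not above background on every TAG array.

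Markers of other cells moved beside these genes, and their part in the differences was not tested. In the mural list 3 of 4 genes rose: ACTA2 (smooth muscle actin) by 1.82 to 2.54 over its 4 probes, CNN1 (calponin 1) by 2.49 by 1 of 2 probes and DES (desmin) by 1.52, 2.73 and 2.9985 by 3 of 4. ANPEP (aminopeptidase N) did not pass and had -0.11 by 1 probe. Its other probe was above background on only 1 of 3 Exoseal arrays and is given no fold. With slide as a block 2 of the 4 ACTA2 probes passed and no CNN1 or DES probe did, and with median scaling no ACTA2 probe passed (adjusted p = 0.0518 to 0.102). Within slide 1 CNN1 had 1.36 and DES 1.495, 1.22 and 1.305. MYLK had -1.37. The mean scaled log2 signal of the 4 smooth muscle markers was 6.13 to 6.51 in the TAG group and 5.36 to 5.61 in the Exoseal group. Of 7 macrophage markers LYZ and AIF1 fell, though LYZ A_72_P177571 (-0.91) and AIF1 A_72_P496351 (-1.39) did not pass. C1QA, CD14 and the CD163 probes had 0.10 to 1.04, and FCER1G and TYROBP -0.78 to -0.19, none past the threshold. TYROBP and the CD163 probe with 1.04 were above background on no TAG array. The list's mean, over the brightest probe of each gene, ran from 0.66 to 0.85 in TAG and from 1.23 to 1.79 in Exoseal. The leukocyte integrin ITGB2 fell by 1.89 ± 0.52 (adjusted p = 0.0944 with slide as a block). Of 3 platelet markers, cells that also carry PECAM1, GP9 rose by 2.33 ± 0.60 (1.06 within slide 1, adjusted p = 0.256 with slide as a block), and ITGA2B (-0.29) and ITGB3 (-0.38 and 1.65, the second -0.15 with quantile scaling) did not pass. DCN of fibroblasts rose by 2 of its 4 probes (1.91 and 1.86). LEP of fat read lower past the threshold by 1 of 2 probes. That LEP probe was above background on no TAG array and reached the filter only through Exoseal arrays, so no fall is counted. None of these DCN and LEP probes passed with slide as a block. FABP4 had -0.93 to -0.16, and ACTA1 of skeletal muscle rose by 3 of its 16 probes, at most by 2.48, with others down to -1.94 and a median of 0.06 over the skeletal muscle list. No probe of the lymphatic list was tested.

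The named genes whose scaled signal followed each member most closely across the 6 arrays are given as a description, with Pearson's r to the member's brightest probe over 1614 candidate genes. CDH5 was followed by ANXA1 (annexin A1, r = 0.998), IFI30 (a lysosomal thiol reductase, 0.995) and CHCHD1 (0.995), of which IFI30 passed as lower in TAG, at -2.53 ± 0.53 (adjusted p = 0.101 with slide as a block). ANGPT2 was followed by PRKAR1A (a regulatory subunit of protein kinase A, 0.990), KLF11 (a transcription factor, 0.990) and APOM (apolipoprotein M, 0.982). KLF11 and APOM read lower in TAG past the threshold, and APOM did not pass with slide as a block (limma adjusted p = 0.0948). Neither was above background on any TAG array. Both reached the filter only through Exoseal arrays, which favours a lower reading in TAG, so no fall is counted. PECAM1 was followed by ACADS (0.971) and SPCS1 (0.965), and NOS3 by KIAA1958 (0.973), AMY2 (0.970) and SLA-3 (0.970), none of which passed. RGS5 was followed by RPSA (0.994), EEF1A1 (0.993) and RPS18 (0.993), genes of ribosomes and translation elongation. Their log2 differences of 1.36, 1.29 and 1.27 did not pass over 6 arrays, and all passed as higher in TAG with slide as a block (limma adjusted p = 0.0448, 0.0373 and 0.0316). All 6 arrays share their slide and group structure in these correlations.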

How the data were processed

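RNA of 6 pig femoral artery samples was measured, 3 TAG and 3 Exoseal, grouped by title. Per the labels' protocols it was amplified, labelled with Cy3 and hybridised. Per the file headers and the submitters' processing notes, the deposited intensity values come from Agilent Feature Extraction 11.0.1.1, with the processed signal background-subtracted and detrended within each array and not scaled between arrays. The authors' deposited table holds log2 values with a median of 3.40 and the same 75th percentile in every column, and the software behind it is not given in the sources used. No 2 arrays were identical (median absolute log2 difference of 0.347 to 1.91).

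Control spots (1417 of 45220) and outlier spots were left out, and spots of a probe averaged on the log2 scale, which kept 43380 probes. Probes were named by unversioned RefSeq accession through a gene table of Sscrofa11.1, used for names alone (5435 probes, 2384 genes). Probes well above background on at least 3 of 6 arrays were tested with limma 3.58.1 in R 4.3.3 (two-sided, no covariates, Benjamini-Hochberg, threshold 0.05). The normexp alternative used the median spot brightness, and the fit was tested on simulated data. Probe ratios used exact permutation tests (scipy 1.17.1).

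The members, lists and tests were chosen with earlier results of these data known. Named genes were every member probe, up to 6 past the threshold of each list (all probes where at most 4 genes were measured, otherwise the 2 with the smallest p where none passed) and the 3 closest genes per member. CLDN5 and CD9 were named after their values were seen. Of the genes this rule names, 2 are not reported here. The number of arrays limits the precision.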

Additional observations from a re-analysis of the deposited data

How the results depend on the processing

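Of 140 alternative values of the 8 tested member probes, 89 kept their direction and their side of the threshold, 44 kept the direction but no longer passed, 4 newly passed and 3 changed sign. All 44 belong to the 4 member probes that passed over 6 arrays, and these lost their call more often than they kept it. Most of the 89 are values of probes that did not pass in the first place. Over all probes 1049 passed with median scaling, 1580 with normexp and quantile scaling, 3788 with Exoseal replicate 1 counted as TAG and 0 without the filter on dim probes (14128 at an unadjusted p under 0.05 in limma), against 2443. Of the calls 65.7% were higher in TAG, against 51.7% with quantile and 46.9% with median scaling, which moved the median of all probes by -0.46. Member probes past the threshold numbered 1 with median scaling, 2 with the 75th percentile over probes detected on all arrays, 2 with normexp, 2 with the brightest probe per gene, and 0 without the filter, with slide as a block or within slide 1.

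CDH5 A_72_P077856 had -2.93 with median scaling, -2.20 with normexp, -2.47 without the filter and -1.49 with slide as a block and within slide 1, and passed in none of these. PECAM1 A_72_P077376 had 1.94 with median scaling, 2.40 without the filter and 1.13 with slide as a block and within slide 1, again without passing, and 0.73 with normexp, where it passed. ANGPT2 A_72_P185266 had -2.16 with median scaling, -1.57 with the 75th percentile over detected probes, -1.70 without the filter, -1.57 with slide as a block and within slide 1, and -1.37 with Exoseal replicate 1 as TAG. NOS3 A_72_P442218 had 3.14 with the 75th percentile over detected probes, 0.54 with normexp, 3.01 without the filter and 0.96 with slide as a block and within slide 1. PECAM1 A_72_P218027 passed at -1.97 with Exoseal replicate 1 as TAG, and RGS5 A_72_P569669 at 1.57 among probes above background on all 6 arrays, where fewer probes were tested. NOS3 A_72_P177526 changed sign to 0.0113 with slide as a block and within slide 1, and RGS5 A_72_P146676 to -0.14 with normexp. The causes were not tested.

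Leaving out each array in turn gave 0 to 7715 probes and 0 to 6 member probes past the threshold, with 0 in every case except without Exoseal replicate 1 (4573 to 6426 at an unadjusted p under 0.05). Without that array group and slide coincide and cannot be told apart. The log2 difference ranged from -2.96 to -1.95 for CDH5 A_72_P077856, from -2.11 to -0.92 for PECAM1 A_72_P218027, from 1.98 to 3.04 for PECAM1 A_72_P077376, from 2.32 to 4.03 for NOS3 A_72_P442218, from -1.95 to -1.50 for ANGPT2 and from 1.22 to 1.82 for RGS5 A_72_P569669.

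With a replicate block 0 of 22720 probes passed (6381 at an unadjusted p under 0.05) and 0 member probes, with unchanged differences of -2.47 for CDH5, 2.40 for PECAM1 A_72_P077376, 3.01 for NOS3 A_72_P442218 and -1.70 for ANGPT2. The samples share only a number: deviations of same-numbered samples from their group means had r of -0.18, 0.09 and -0.07 across probes.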

Other observations

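Against RGS5 A_72_P146676 on the same array, a log2 ratio that does not depend on scaling between arrays, the brightest probes of the endothelial genes were lower in TAG on every array. The ratio averaged -5.21 ± 0.27 in TAG and -1.93 ± 0.62 in Exoseal for CDH5 A_72_P077856 (SD, n = 3 each). It averaged -5.59 ± 0.50 in TAG and -3.07 ± 0.30 in Exoseal for ANGPT2, -6.09 ± 1.06 in TAG and -3.71 ± 0.51 in Exoseal for PECAM1 A_72_P218027, and -6.61 ± 0.51 in TAG and -5.27 ± 0.10 in Exoseal for NOS3 A_72_P177526. For all 4 the groups did not overlap, with Exoseal replicate 1 on the Exoseal side. The share of all tested probes without overlap in such a ratio was not computed. After scaling, RGS5 A_72_P146676 itself read 0.81 log2 units higher in TAG, which lowers every ratio to it in TAG. On their own scaled signal PECAM1 A_72_P218027 and NOS3 A_72_P177526 overlapped between the groups. By a two-sided exact permutation test p was 0.1 for each, the smallest possible (0.15 adjusted over 6 ratios). For the dim probes PECAM1 A_72_P077376 and NOS3 A_72_P442218 the groups overlapped (p = 0.4 each by the same exact test). Such a ratio shows unequal change of 2 genes and not which of them changed, and it was chosen after the values were seen.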
